A study of Mus musculus with 4 samples.

Results

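The apolipoprotein genes of the mouse liver, including Apoa2, whose product is the fibril protein of AApoAII amyloidosis, were followed across 4 groups of mice. The members are the 10 genes named Apoa1, Apoa2, Apoa4, Apoa5, Apob, Apoc1, Apoc2, Apoc3, Apoe and Apoh, chosen by name from the 35275 genes in the deposited count table. Each name matched a single protein-coding row. The groups were VS (saline vehicle, sedentary), VI (saline vehicle, interval training, IT), FS (injected intravenously with AApoAII fibrils, sedentary) and FI (AApoAII fibrils, IT). All mice carried the amyloidogenic Apoa2c allele, the controls included, and all livers were taken at 26 weeks of age after 16 weeks of intervention on a treadmill or without training. The strain is R1.P1-Apoa2c (female mice of SAMR1 background) in the study's methods but AKR/J, congenic for Apoa2c, in the labels. The livers of 4 mice were pooled per group before sequencing. The 16 mice thus stand behind 4 libraries, 1 in each group, and no comparison of a pair of libraries has a replicate error or a test.

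Apolipoproteins are the protein part of the particles that carry lipid in blood, and the liver secretes most of them. APOA-I and APOA-II are the main proteins of high-density lipoprotein (HDL), APOB is the large scaffold of very-low-density and low-density lipoprotein, and APOE and the small C apolipoproteins move between particles and steer their breakdown by lipases and their uptake by receptors. In AApoAII amyloidosis, APOA-II leaves HDL and builds extracellular fibrils, and injected fibrils act as seeds for further deposition; the transcript measured here therefore encodes both a lipoprotein component and the amyloid precursor.

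The regions before the start sites of Apoa2, Apoa1, Apoe and Apoa5 are printed because the levels of these genes moved apart from each other between the libraries. The sequences are from RefSeq on GRCm38.p6, and each ends before the start of the gene. The set of promoter regions used here has an entry for 8 of the 10 members. Capitals mark matches, on either strand, to 7 short motifs that were searched in the 250 bases before each RefSeq start. The letters AGGTCA are bound by nuclear receptors and TGTTTAC by forkhead factors. The TATA box was searched as TATAAA, the E-box as CACGTG and the binding letters of the factor NF-Y as CCAAT. The binding letters of Sp1 were searched as GGGCGG and the cyclic AMP response element as TGACGT. No pair of these motifs overlapped in the regions printed. The motifs were chosen with the sequences known. Apoa2 is on the plus strand at chr1:171224804-171225053, Apoa1 on the plus strand at chr9:46228380-46228579, Apoe on the minus strand at chr7:19699189-19699438 and Apoa5 on the plus strand at chr9:46268383-46268632.
Apoa2: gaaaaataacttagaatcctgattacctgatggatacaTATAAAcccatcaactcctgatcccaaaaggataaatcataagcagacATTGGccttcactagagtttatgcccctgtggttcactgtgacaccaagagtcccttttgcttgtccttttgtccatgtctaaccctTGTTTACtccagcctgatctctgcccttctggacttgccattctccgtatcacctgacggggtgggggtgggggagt
Apoa1: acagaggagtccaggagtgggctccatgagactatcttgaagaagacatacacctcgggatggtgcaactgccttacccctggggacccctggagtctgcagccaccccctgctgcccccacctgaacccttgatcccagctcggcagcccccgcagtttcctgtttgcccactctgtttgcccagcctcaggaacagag
Apoe: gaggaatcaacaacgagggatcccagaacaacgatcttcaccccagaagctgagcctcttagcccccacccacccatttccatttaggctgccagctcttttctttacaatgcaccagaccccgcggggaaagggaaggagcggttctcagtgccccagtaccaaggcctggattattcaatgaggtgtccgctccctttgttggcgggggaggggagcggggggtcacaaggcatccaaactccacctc
Apoa5: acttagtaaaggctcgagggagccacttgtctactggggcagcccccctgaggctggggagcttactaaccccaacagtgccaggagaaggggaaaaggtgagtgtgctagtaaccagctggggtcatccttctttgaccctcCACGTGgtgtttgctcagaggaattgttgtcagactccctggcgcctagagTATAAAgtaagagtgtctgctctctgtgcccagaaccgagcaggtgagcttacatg
The Apoa2 region holds TATAAA starting 212 bases before the start, CCAAT on the reverse strand starting 164 bases before it, and TGTTTAC starting 77 bases before it. TGTTTAC occurs in 3.17% of 32851 promoter regions of the same length, TATAAA in 12.4% and CCAAT in 33.8%. Among the members with an entry, TGTTTAC was otherwise found before Apoh, starting 71 bases before its RefSeq start. The Apoa5 region holds CACGTG starting 107 bases and TATAAA starting 56 bases before the start, and CACGTG occurs in 6.02% of the regions. AGGTCA, found before Apoc2 and Apoh, occurs in 14.0% of the regions, GGGCGG in 32.7% and TGACGT in 6.47%. No motif of the list was found before Apoa1, Apoe or Apoa4, which says only that these letters are not in those windows. Of the bases searched, 200 for Apoa1 (those printed) and 102 for Apoa4 lie before the start listed with the counts. The rest of those windows lies inside the listed gene, as does most of the window of Apoc2 and of Apoh.

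Total counts lay between 23442935 (VS) and 28814802 (FS). Counts were scaled by the TMM method, with factors between 0.975 and 1.02, and are given as CPM, scaled to a common library size. Intervals are 95% counting intervals. They cover counting error only, and may be too narrow even for that, because sequenced reads are not independent molecules. Differences between mice or pools are not covered. Hepatocyte markers were abundant in every library: the 7 found of 8 summed to between 147663 and 165870 CPM, and all 7 were present. The VS library held transcripts of skeletal muscle, with 10 markers summing to 70.2 CPM for VS, 8.95 for VI, 0.948 for FS and 0.703 for FI, and the part of that tissue in the values of the members was not tested. The 9 Kupffer cell and macrophage markers found of 10 summed to 318 CPM for VS, 384 for VI, 492 for FS and 485 for FI. In bulk tissue, fewer cells of a type and less RNA per cell cannot be told apart.

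The members took 7.003% of all counts for VS, 6.50% for VI, 5.70% for FS and 6.09% for FI. Compared per length, as FPKM (counts scaled to gene length and library total), Apoe was the most abundant member in every library and rank 2 among protein-coding genes. Apoa2 was above Apoa1 in VS and VI and below it in FS and FI, and these genes held ranks 3 and 4 among protein-coding genes. Apoc1, Apoc3, Apoh, Apoa5, Apob, Apoc2 and Apoa4 followed in this order in all 4 libraries. Apoe FPKM was between 16614 and 23364, and Apoa4 FPKM was between 30.7 and 91.8. A set of 4 members lies in a 43.3 kb cluster on chromosome 9 (46228580 to 46271919; Apoa1, Apoc3, Apoa4 and Apoa5), and 3 lie in a 27.6 kb cluster on chromosome 7 (19671579 to 19699166; Apoe, Apoc1 and Apoc2). The coordinates are those listed with the counts, for which the submitters' processing notes name mm10.

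**Figure D1:**
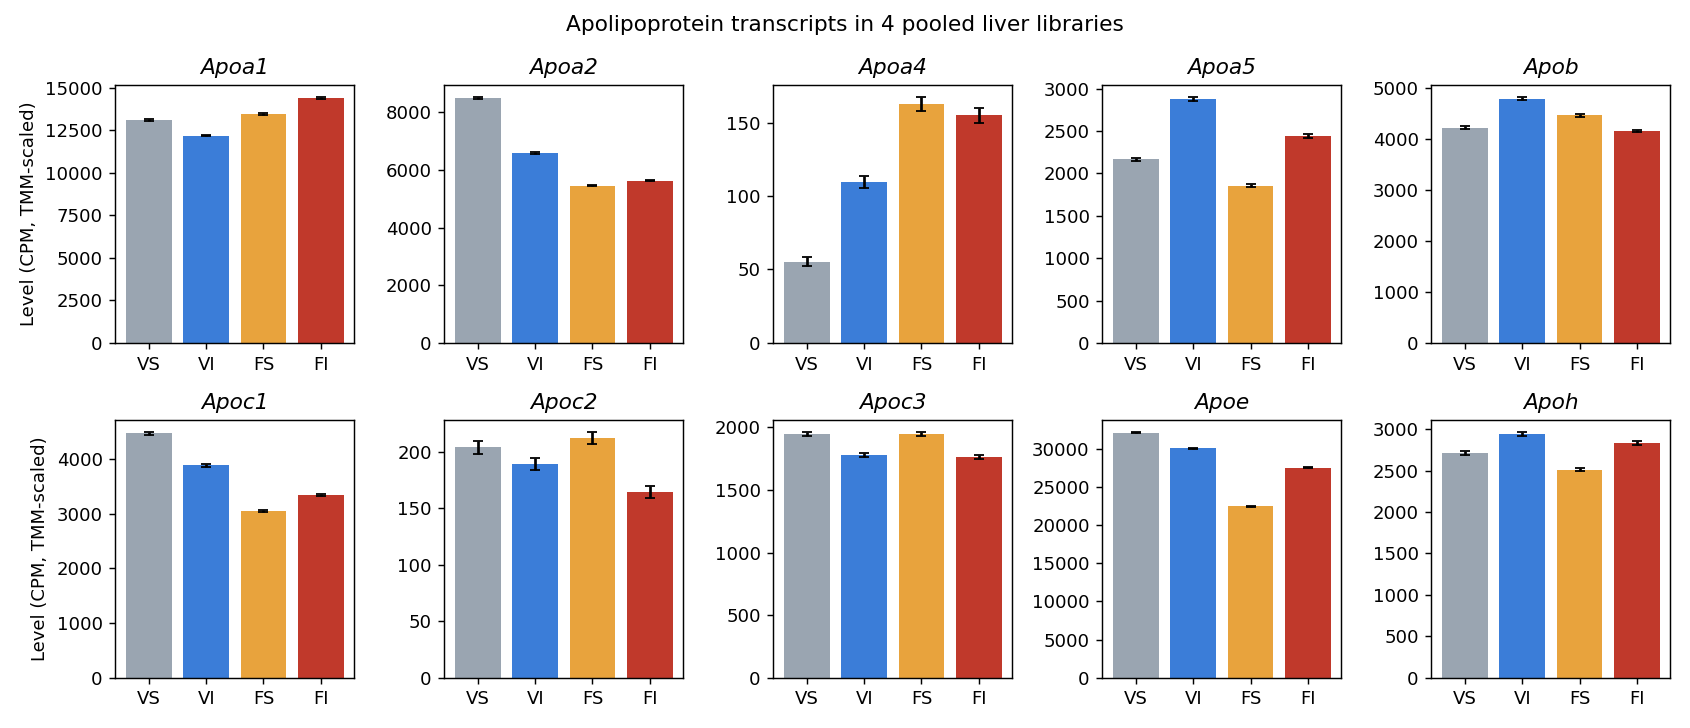
Level of each apolipoprotein transcript (CPM, TMM-scaled, each panel with its own axis from 0) in the 4 pooled liver libraries VS, VI, FS and FI, with 95% counting intervals as bars. Apoc1 and Apoe are highest in VS and lowest in FS, Apoa2 is highest in VS and similar in FS and FI (FS is the lower with this scaling, FI with total counts), Apoa4 is lowest in VS and highest in FS, and Apoa5 is higher in VI than in VS and higher in FI than in FS.

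Apoa2 (ENSMUSG00000005681; chromosome 1, 171225054 to 171226379, plus strand), the amyloid precursor, was at 8482 CPM (8445 to 8519) for VS, 6584 (6552 to 6616) for VI, 5451 (5424 to 5477) for FS and 5627 (5598 to 5657) for FI. VS stood above the other 3 libraries, which lay within 1.21-fold of each other, and the levels in FS and FI were close. Between FS and VS the log2 ratio was −0.64 (−0.65 to −0.63), which is 1.56-fold lower in the fibril library. Between VI and VS it was −0.37 (−0.37 to −0.36), between FI and VI −0.23 (−0.24 to −0.22) and between FI and FS 0.05 (0.04 to 0.06). The difference between FI and FS changed sign with the scaling, to −0.02 with total counts. By quantitative PCR in individual mice, the study reported that exercise left the Apoa2 transcript of the liver unaffected. The contrasts of VI and of FS with VS have the VS library in common, those of FI with FS and with VI the FI library, and their values are not independent. Among the 1049 genes that reached 100 CPM in every library, the median log2 ratio of FS over VS was −0.17, with 5th and 95th percentiles at −0.78 and 0.65, so the Apoa2 value lay inside the range of most abundant genes, and 85.3% of them had a smaller absolute ratio.

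Apoa1 (ENSMUSG00000032083; chromosome 9, 46228580 to 46230466, plus strand) encodes the main structural protein of HDL and the activator of lecithin-cholesterol acyltransferase. Its level was 13124 CPM for VS, 12191 for VI, 13474 for FS and 14408 for FI, a span of 1.18-fold with VI lowest and FI highest. Both HDL genes can be set against each other within a library, where no scaling between libraries enters. The count ratio of Apoa2 to Apoa1 was 0.646 (0.643 to 0.650) for VS, 0.540 (0.537 to 0.543) for VI, 0.405 (0.402 to 0.407) for FS and 0.391 (0.388 to 0.393) for FI, so both fibril libraries lay below both vehicle libraries. Per length, the FPKM ratio went from 1.29 in VS and 1.08 in VI to 0.808 in FS and 0.780 in FI. On the log2 scale the ratio was lower with fibril injection in sedentary livers, at −0.68 (−0.69 to −0.66), and in trained livers, at −0.47 (−0.48 to −0.45); these contrasts share no library. With IT it was −0.26 in vehicle livers and −0.05 in fibril livers.

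**Figure D2:**
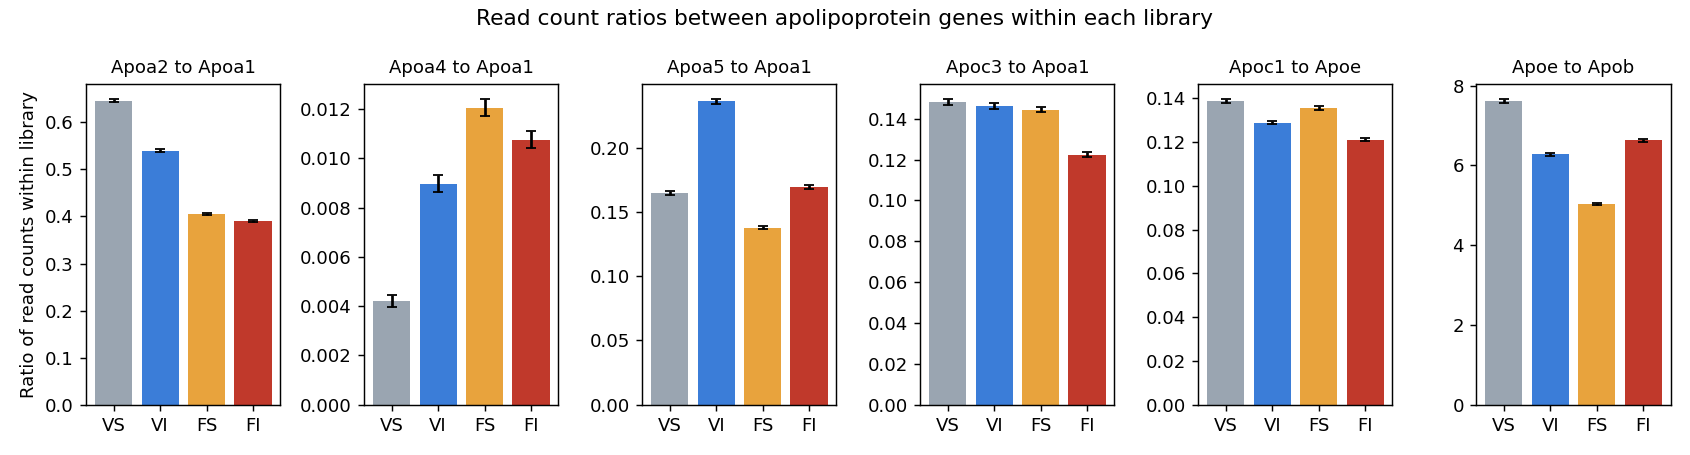
Ratio of read counts between pairs of apolipoprotein genes within each library (each axis from 0), with 95% counting intervals as bars. The Apoa2 to Apoa1 ratio is 0.646 in VS and 0.391 in FI, Apoa4 to Apoa1 is lowest in VS, and the Apoc3 to Apoa1 ratio lies between 0.122 and 0.148.

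Apoa4 (ENSMUSG00000032080; chromosome 9, 46240696 to 46243459, plus strand), a lipid-binding apolipoprotein that the intestine makes in large amounts in addition to the liver, had the widest span of the members. It was at 55.3 CPM (52.3 to 58.3) for VS, 109 (105 to 114) for VI, 163 (158 to 167) for FS and 155 (150 to 160) for FI. VS was the lowest library, FS and FI were close together, and without VS the highest level was 1.49-fold the lowest. The log2 ratio was 1.56 (1.47 to 1.65) for FS over VS, 0.99 (0.89 to 1.08) for VI over VS, 0.50 (0.43 to 0.57) for FI over VI and −0.07 (−0.13 to −0.01) for FI over FS. Among genes that reached 100 CPM in every library, which Apoa4 did not reach in VS, 99.0% had a smaller absolute ratio for FS over VS. The enterocyte marker sum was 131 CPM for VS, 94.2 for VI, 63.1 for FS and 72.9 for FI, carried by Fabp2 and Lgals4. Sis, Alpi, Cdh17 and Krt20 had no count in any library. The part of intestinal tissue in the Apoa4 values was not tested. Apoa4 shares its end with the antisense gene Gm10680, which had no count in any library.

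Apoa5 (ENSMUSG00000032079; chromosome 9, 46268633 to 46271919, plus strand), which promotes the hydrolysis of plasma triglyceride by lipoprotein lipase, was higher with IT by nearly the same ratio in both backgrounds. Its level was 2166 CPM for VS, 2876 for VI, 1854 for FS and 2441 for FI. Both trained libraries lay above both sedentary ones. The log2 ratio with IT was 0.41 (0.39 to 0.43) in vehicle livers and 0.40 (0.38 to 0.41) in fibril livers, contrasts that share no library, and their difference was −0.01 (−0.04 to 0.01). Fibril injection went with lower Apoa5 by a similar amount in both, at −0.22 in sedentary and −0.24 in trained livers. Apoa5 lies at the other end of the chromosome 9 cluster from Apoa1, and its count relative to Apoa1 was 0.165 for VS, 0.236 for VI, 0.138 for FS and 0.169 for FI.

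Apob (ENSMUSG00000020609; chromosome 12, 7977648 to 8016835, plus strand), the structural protein of very-low-density lipoprotein, varied least but for Apoc3, with 4219 CPM for VS, 4790 for VI, 4463 for FS and 4155 for FI, a span of 1.15-fold. Its log2 ratio with IT was 0.18 in vehicle and −0.10 in fibril livers.

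The C apolipoproteins, small proteins that regulate lipases, did not move together. Apoc1 (ENSMUSG00000040564; chromosome 7, 19689484 to 19692658, minus strand), an inhibitor of lipoprotein uptake and of cholesteryl ester transfer, was at 4464 CPM for VS, 3882 for VI, 3049 for FS and 3339 for FI. The vehicle libraries lay above the fibril libraries, and the log2 ratio was −0.55 (−0.56 to −0.54) for FS over VS and −0.22 (−0.23 to −0.20) for FI over VI. Apoc3 (ENSMUSG00000032081; chromosome 9, 46232933 to 46235636, minus strand), an inhibitor of lipoprotein lipase, was at 1945 CPM for VS, 1781 for VI, 1945 for FS and 1763 for FI. The sedentary libraries differed from each other by less than the counting interval, as did the trained ones, and the IT log2 ratio was −0.13 (−0.15 to −0.11) in vehicle livers and −0.14 (−0.16 to −0.12) in fibril livers. Apoc2 (ENSMUSG00000002992; chromosome 7, 19671579 to 19681423, minus strand), the cofactor of lipoprotein lipase, was at 204, 189, 212 and 164 CPM in VS, VI, FS and FI, and the FI library stood lowest. The listed extent of Apoc2 covers Apoc4 on the same strand, so its value is uncertain where reads could be split. The sum of both genes was 555 CPM for VS, 484 for VI, 481 for FS and 414 for FI, and its IT log2 ratio was −0.20 in vehicle and −0.21 in fibril livers. With fibrils the log2 ratio of the sum was −0.21 in sedentary and −0.23 in trained livers, lower in both as for Apoc1.

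Apoe (ENSMUSG00000002985; chromosome 7, 19696109 to 19699166, minus strand), the ligand by which remnant lipoproteins are taken up and a protein often found in amyloid deposits, was at 32147 CPM for VS, 30103 for VI, 22474 for FS and 27554 for FI. FS was the lowest library and FI lay between it and the vehicle libraries. The log2 ratio was −0.52 (−0.52 to −0.51) for FS over VS, −0.13 (−0.13 to −0.12) for FI over VI, −0.09 (−0.10 to −0.09) for VI over VS and 0.29 (0.29 to 0.30) for FI over FS. Its neighbour Apoc1 kept close to it: the Apoc1 to Apoe count ratio was 0.139 for VS, 0.129 for VI, 0.136 for FS and 0.121 for FI. The Apoe to Apob count ratio was 7.62 for VS, 6.29 for VI, 5.04 for FS and 6.63 for FI. Macrophages also express Apoe. The Kupffer cell marker sum given above was higher in FS than in VS, and Apoe was lower. The part of these cells in the Apoe values was not tested.

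Apoh (ENSMUSG00000000049; chromosome 11, 108343354 to 108414396, plus strand), which encodes beta-2-glycoprotein I, a plasma protein that binds phospholipids, was at 2714 CPM for VS, 2946 for VI, 2508 for FS and 2836 for FI. Like Apoa5 it was higher in both trained libraries, by a log2 ratio of 0.12 (0.10 to 0.13) in vehicle and 0.18 (0.16 to 0.19) in fibril livers. Its listed extent overlaps Prkca on the opposite strand, which had between 71 and 182 counts.

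By size, Apoa4 in FS versus VS, at 2.94-fold higher, was the single member value beyond 2-fold. Of 12180 genes with at least 1 CPM in a library, 5.78% lay beyond 2-fold in FS versus VS, 3.60% higher and 2.18% lower. None of the 10 members lay beyond 2-fold in VI versus VS, where 3.44% of genes did (1.54% higher, 1.90% lower), in FI versus FS, where 4.26% did (1.72% higher, 2.54% lower), or in FI versus VI, where 4.54% did (2.59% higher, 1.95% lower). With IT, the median over the members was −0.10 in vehicle and 0.07 in fibril livers, beside −0.01 and 0.06 for the genes that reached 100 CPM. With fibrils it was −0.06 in sedentary and −0.17 in trained livers, beside −0.17 and −0.10. In FS versus VS 4 members were higher and 6 lower, and in FI versus VI 2 were higher and 8 lower. In both contrasts the median of the genes that reached 100 CPM was below 0 as well. The share of those genes that were lower was not counted, so these numbers cannot be read as particular to the members. With other scalings, Apoa1 and Apoc2 in FS versus VS changed sign (−0.03 and −0.01 with upper quartile scaling), as did Apoc3 (0.02 with total counts).

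**Figure D3:**
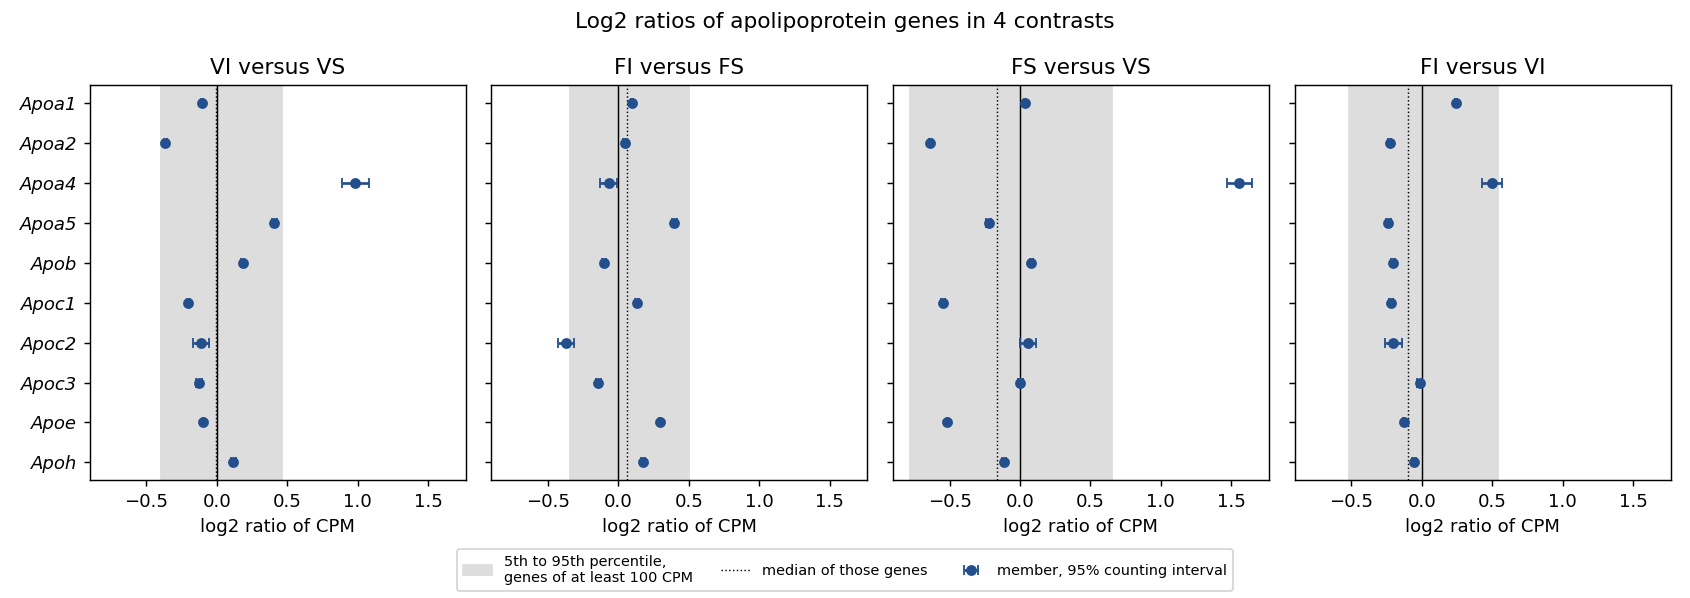
Log2 ratio of CPM of each apolipoprotein gene in the 4 contrasts, with 95% counting intervals; the grey band spans the 5th to 95th percentile of the genes with at least 100 CPM in every library and the dotted line is their median. In FS versus VS, Apoa4 lies at 1.56, outside the band, and Apoa2, Apoc1 and Apoe lie at −0.64, −0.55 and −0.52, inside it.

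The terms for amyloidosis and IT were also fitted additively to the 4 libraries by the quasi-likelihood method of edgeR, with p-values adjusted over 11760 genes (Benjamini-Hochberg). The model has 3 coefficients and 1 residual degree of freedom, which is the interaction, so a gene whose response to IT differs between vehicle and fibril livers gets a larger error. None of the 10 members was called at an adjusted p below 0.05 for amyloidosis, where 4.97% of genes were called (2.81% higher, 2.17% lower), or for IT, where 1.48% were called (0.765% higher, 0.714% lower). At an unadjusted p below 0.05 there were 3 members for amyloidosis (Apoa2, Apoa4 and Apoc1) and 1 for IT (Apoa5), beside 21.4% and 14.7% of all genes fitted. For amyloidosis, the log2 change of Apoa4 was 1.02 ± 0.24 (SE; adjusted p = 0.074), and limma-voom, a fit without robust estimation and a fit with no filter on low counts called it, while DESeq2 did not; those 3 fits called 706 of 11760, 619 of 11760 and 1519 of 19939 genes. The change of Apoa2 was −0.44 ± 0.17 (adjusted p = 0.18), that of Apoc1 −0.39 ± 0.16 (adjusted p = 0.20) and that of Apoe −0.33 ± 0.18 (adjusted p = 0.34). The remaining members lay between −0.24 (Apoa5) and 0.13 (Apoa1). For IT, the change of Apoa5 was 0.40 ± 0.14 (adjusted p = 0.24), that of Apoa4 0.45 ± 0.24 (adjusted p = 0.46), that of Apoc2 −0.24 ± 0.12 (adjusted p = 0.42) and that of Apoa2 −0.16 ± 0.17 (adjusted p = 0.73). The fit with no filter also called Apoa4 for IT, where it called 3.71% of its genes.

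**Figure D4:**
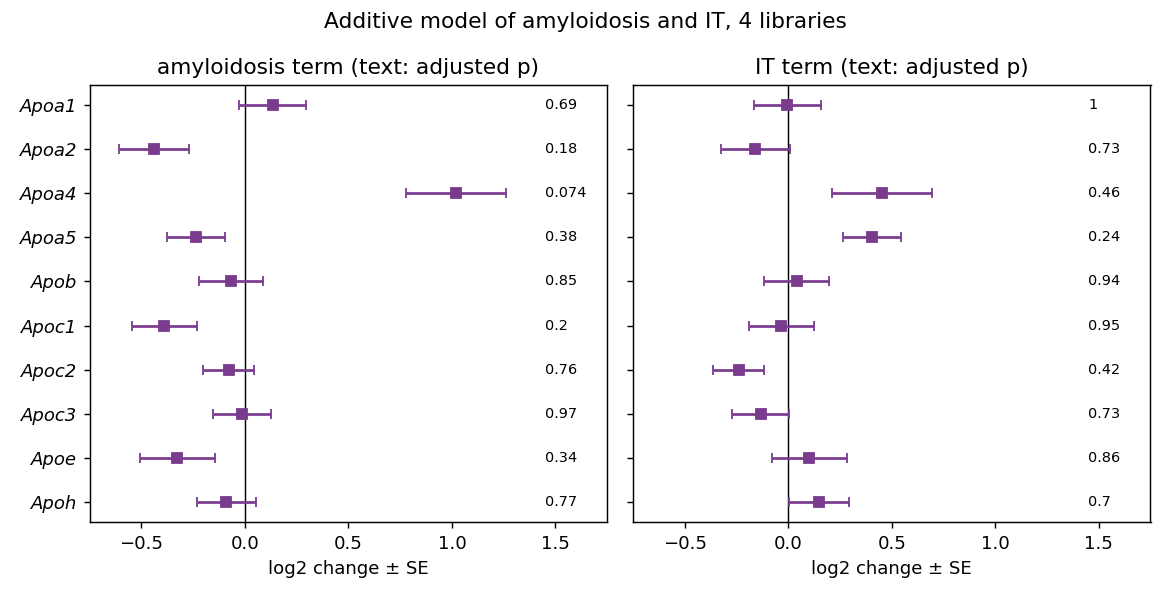
Log2 change of each apolipoprotein gene for the amyloidosis term and the IT term of the additive model over 4 libraries. Bars are the standard error, derived from the F statistic of the test, and the text gives the adjusted p. No member passes an adjusted p of 0.05; Apoa4 (1.02) and Apoa2 (−0.44) lie farthest from 0 for amyloidosis, and Apoa4 (0.45) and Apoa5 (0.40) for IT.

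Genes that act with the apolipoproteins were taken in 7 lists and read from the same fit, against a median log2 change over all genes of 0.01 for amyloidosis and 0.00 for IT. Of all genes fitted, 4.97% were called for amyloidosis (2.81% higher, 2.17% lower) and 1.48% for IT (0.765% higher, 0.714% lower). The lists were chosen with earlier results known, and their counts of genes called were not tested against these shares. Of 15 genes of lipoprotein assembly and secretion, none passed either term, with medians of −0.03 for amyloidosis and −0.04 for IT. Cideb, which helps load lipid onto very-low-density lipoprotein, had the lowest amyloidosis value (−0.62 ± 0.15, adjusted p = 0.052), and P4hb, the disulfide isomerase subunit of the triglyceride transfer complex, the highest (0.39 ± 0.14, adjusted p = 0.17). Mia2, which exports lipoproteins from the endoplasmic reticulum, had the highest IT value (0.30 ± 0.13, adjusted p = 0.34). Of 12 fitted receptor and clearance genes, none passed for amyloidosis, and the medians were −0.18 for amyloidosis and −0.03 for IT. Lrp1, a remnant receptor, was at 0.30 ± 0.13 for amyloidosis (adjusted p = 0.25), and Mylip, a ubiquitin ligase that acts on lipoprotein receptors, at 0.39 ± 0.15 for IT (adjusted p = 0.29).

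Of 7 fitted lipases and lipase regulators, none passed either term, with medians of −0.07 for amyloidosis and −0.10 for IT. Lpl, lipoprotein lipase, was at 12.2 CPM for VS, 11.4 for VI, 35.3 for FS and 16.9 for FI, and the FS library stood highest (1.06 ± 0.23 for amyloidosis, adjusted p = 0.052; −0.61 ± 0.23 for IT, adjusted p = 0.30). Lipg, endothelial lipase, was at −0.51 ± 0.19 for amyloidosis (adjusted p = 0.17), and Angptl4, a lipase inhibitor, at 0.52 ± 0.14 for IT (adjusted p = 0.14). Of 8 genes of HDL remodelling, Saa4 rose with amyloidosis and none passed for IT, with medians of 0.03 and 0.10. Saa4, an apolipoprotein of HDL, was at 364 CPM for VS, 352 for VI, 659 for FS and 935 for FI (1.13 ± 0.16, adjusted p = 0.0089). Lcat, which esterifies HDL cholesterol with APOA-I as cofactor, was at −0.33 ± 0.14 for amyloidosis (adjusted p = 0.21). Of the cholesterol exporters that feed HDL, Abca1 was at 0.32 ± 0.11 (adjusted p = 0.24) and Abcg1 at −0.05 ± 0.21 (adjusted p = 0.95) for IT.

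Of 11 fitted genes among 16 other genes named for apolipoproteins, 2 fell with amyloidosis and 1 rose with IT, with medians of −0.20 and −0.17. Over all genes fitted, 2.17% fell with amyloidosis and 0.765% rose with IT. Apol7a was at 99.6 CPM for VS, 82.6 for VI, 61.4 for FS and 38.1 for FI (−0.91 ± 0.13 for amyloidosis, adjusted p = 0.0093). Apol9b fell with amyloidosis (−0.47 ± 0.11, adjusted p = 0.046) and Apol9a rose with IT (0.74 ± 0.14, adjusted p = 0.040); these genes have near-identical copies among which reads could be split, so their values are uncertain. Apon had the highest amyloidosis value (0.23 ± 0.14, adjusted p = 0.38) and Apobr, a receptor for APOB, the lowest IT value (−0.85 ± 0.44, adjusted p = 0.42). The 19 fitted transcription factors that act on apolipoprotein genes had medians of −0.02 for amyloidosis and 0.00 for IT, and none rose with either term. Foxa2, a forkhead factor, fell with amyloidosis, from 37.5 CPM in VS and 36.5 in VI to 24.5 in FS and 20.7 in FI (−0.72 ± 0.12, adjusted p = 0.016). The other forkhead factors of the list did not pass for amyloidosis. Foxa1 was at −0.48 ± 0.15 (adjusted p = 0.11), Foxa3 at −0.02 ± 0.11 (adjusted p = 0.95) and Foxo1 at 0.13 ± 0.11 (adjusted p = 0.55). Nr1d1, a circadian repressor, fell with IT and was at 30.0 CPM for VS, 7.10 for VI, 49.0 for FS and 7.19 for FI (−2.43 ± 0.18 for IT, adjusted p = 0.0012). Ppargc1a, a coactivator, was at 0.51 ± 0.14 for amyloidosis (adjusted p = 0.086), and Onecut1 at 0.72 ± 0.23 for IT (adjusted p = 0.20).

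Of 12 plasma proteins found in amyloid deposits, 3 rose and 2 fell with amyloidosis, and none passed for IT, with medians of −0.02 and 0.10. Over all genes fitted, 2.81% rose and 2.17% fell with amyloidosis. Saa2, an acute phase apolipoprotein of HDL, was at 9.95 CPM for VS, 51.1 for VI, 523 for FS and 1164 for FI (5.07 ± 0.32, adjusted p = 0.0017). Its near-identical copy Saa1 rose as well (4.24 ± 0.41, adjusted p = 0.014), and reads could be split between them. Fga, the fibrinogen alpha chain, rose by 0.91 ± 0.19 on the log2 scale (adjusted p = 0.031). Gsn, the actin-binding gelsolin, was at 20.3 CPM for VS, 13.2 for VI, 9.76 for FS and 8.47 for FI (−0.86 ± 0.17, adjusted p = 0.024), and Lect2, a hepatocyte-secreted factor, changed by −0.60 ± 0.11 (adjusted p = 0.022).

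Among the 1049 genes that reached 100 CPM in every library, the 3 with the pattern most like Apoa2 over the 4 libraries, by the distance between log2 CPM values centred on their mean, were Vegfa (0.057), Hspa8 (0.066) and Pcyt2 (0.074). Vegfa was at 201 CPM for VS, 153 for VI, 125 for FS and 126 for FI. Hspa8 was at 1153, 900, 703 and 749 CPM, and Pcyt2 at 603, 473, 414 and 412 CPM. All 3, like Apoa2, were highest in VS, next in VI and lower in both fibril libraries, an order that follows from how they were picked.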

How the data were processed

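Liver RNA of 4 pooled groups (VS, VI, FS, FI) was sequenced on an Illumina platform. The authors deposited 1 raw read count per gene and library, and FPKM values made from these counts, gene lengths and library totals. The submitters' processing notes name fastp 0.23.2, STAR 2.5, HTSeq 0.6.1 and mm10, with no roles or settings, and whether the libraries keep strand is not stated there. The tools were edgeR 4.0.16, limma 3.58.1 and DESeq2 1.42.0 in R 4.3.3, with matplotlib 3.10.9 in Python 3.11.15 for figures.

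Levels are TMM-scaled CPM with exact Poisson intervals. Log2 ratios used a prior of 0.5 counts and exact conditional binomial (Clopper-Pearson) intervals at 95%, over the 12180 genes that reached 1 CPM in 1 library or more. The additive edgeR model (robust quasi-likelihood test, Benjamini-Hochberg adjustment) used the 11760 genes that did so in 2 or more, and was tested on simulated data. The SE of a change in this model was derived from the test, as the absolute log2 change over the square root of the F statistic. The interval of a difference between log2 ratios is a normal approximation from the 4 counts.

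The members, the lists and the tests were chosen with earlier results of these data known. The genes named were all members, from each list the genes with the highest and lowest log2 change for each term, and the 3 genes nearest to Apoa2. List genes that passed the test outside this rule, and Foxa1, Foxa3 and Foxo1, were named after their values were seen. Some list genes under this rule are not reported here. Of 8 lipase genes 1 was not matched by its symbol, as were 1 hepatocyte and 1 Kupffer cell marker. Stellate cell markers summed to between 167 and 200.1 CPM, lymphocyte markers to between 2.26 and 3.98 CPM and pancreas markers to between 0.423 and 2.57 CPM. Alternatives were other scalings, FPKM with a pseudocount of 1 or 0.1, other filters and a fold of 1.5, DESeq2, limma-voom, a fit without robust estimation and each term alone.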

Additional observations from a re-analysis of the deposited data

Results flagged for a closer look

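For 6 members the log2 ratio with IT had opposite signs in vehicle livers (VI versus VS) and fibril livers (FI versus FS). Both counting intervals lay on their own side of 0. The share of all genes that meets this rule was not counted, so the number cannot be read as particular to the members. Values are the ratio in fibril livers minus that in vehicle livers. With 1 library in each group, the difference was not tested against the spread between mice, and the intervals cover counting error only.

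The difference was −1.06 (−1.17 to −0.94) for Apoa4, which was higher with IT in vehicle livers (0.99) and at −0.07 in fibril livers. It was 0.41 (0.40 to 0.43) for Apoa2, from −0.37 to 0.05, and with total counts in place of TMM the value in fibril livers was −0.02, so that the signs were no longer opposite. It was 0.39 (0.38 to 0.40) for Apoe, from −0.09 to 0.29, and 0.33 (0.31 to 0.35) for Apoc1, from −0.20 to 0.13. It was 0.20 (0.19 to 0.21) for Apoa1, from −0.11 to 0.10, and −0.29 (−0.30 to −0.27) for Apob, from 0.18 to −0.10. The VS library, which enters the vehicle ratio, was the lowest of the 4 for Apoa4 and the highest for Apoa2, Apoc1 and Apoe, and it held the skeletal muscle transcripts; the part of that tissue in these values was not tested.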

How the results depend on the processing

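No paired analysis was possible because each group is 1 pooled library. Leaving out a library was not run in the additive model, since 3 libraries leave no residual degree of freedom for 3 coefficients.

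The log2 ratio of Apoa2 moved by more than its counting interval with the scaling. In VI versus VS it was −0.39 with total counts, with upper quartile scaling and with FPKM at either pseudocount. In FI versus FS it was −0.025 with total counts and with FPKM, and 0.058 with upper quartile scaling. In FS versus VS it was −0.65 with DESeq2 size factors, −0.61 with total counts and with FPKM, and −0.71 with upper quartile scaling. In FI versus VI it was −0.25 with total counts and with FPKM, and −0.26 with upper quartile scaling. The change of the Apoa2 to Apoa1 ratio between FS and VS was −0.68 from counts and from FPKM. Of the 36 other log2 ratios of members, 3 changed sign in 5 of 180 alternatives, and the largest shift was 0.07.

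At 1.5-fold, 1 member lay beyond the threshold in VI versus VS (Apoa4) and 2 in FS versus VS (Apoa2 and Apoa4), where 11.7% and 17.5% of all genes did. For amyloidosis, limma-voom, the fit without robust estimation and the fit with no filter on low counts each called 1 member (Apoa4) beside 706, 619 and 1519 of all genes, and its adjusted p lay between 2.2e-10 and 0.39 over 8 alternatives. For IT, the fit with no filter called 1 member (Apoa4; adjusted p between 0.029 and 1). The adjusted p of Apoa2 for amyloidosis lay between 0.081 and 0.31. The IT change of Apoa1 reversed to 0.0011 with IT as the only term and that of Apob to −0.0060 with total counts. The cause was not tested.

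Over all genes, 585 were called for amyloidosis and 174 for IT. With no filter the counts were 1519 and 740, with each term alone 8 and 0 (edgeR), at 5 CPM 82 for IT, and with total counts 273 for IT. DESeq2 called 470 and 182, with no adjusted p for 228 and 1140 genes. Beyond 2-fold, 419, 519, 704 and 553 genes were counted (VI over VS, FI over FS, FS over VS, FI over VI). The counts were 1421, 1648, 2133 and 1703 at 1.5-fold, 144, 203, 353 and 229 at 5 CPM, and 4035, 4044, 4429 and 4197 with no filter.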
